A study of Mus musculus with 12 samples.

Results

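The immediate early and AP-1 factors are 10 transcription factor genes, namely Fos, Fosb, Fosl1, Fosl2, Jun, Junb, Jund, Egr1, Atf3 and Myc. All their probes were taken by gene symbol from the deposited table, and they are 10 of the 27306 genes with a symbol on the array. The 10 genes were chosen with earlier results of these data known. They were covered by 16 of 56605 probes. A probe entered the test if, in 1 condition or more, its 3 arrays were all marked by the scanner as well above background, which held for 29664 probes. All 10 genes had a tested probe, and 14 of their 16 probes were tested. Of these 14, 13 were marked so on each of the 12 arrays, so their place in the test did not depend on a difference between conditions. The remaining one, the dimmer of 2 tested Fosl2 probes, was well above background on 10 arrays. The second probe of Fosb (A_55_P2744102) and the third of Junb (A_55_P2731021) were well above background on 0 of 12 arrays and were not tested.

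RNA came from C2C12, a myoblast line of C3H mice that fuses into myotubes when serum is lowered, after transfection with a control siRNA (siControl) or with an siRNA against Bach1 (siBach1). Bach1 is a repressor that pairs with small Maf proteins on DNA elements which resemble AP-1 sites. Cells were grown in medium with 10% fetal bovine serum, and differentiation was started at confluence, 24 hours after transfection, by a change to 2% horse serum. There were thus 4 conditions, siControl and siBach1 at day 0 and at day 2, with 3 one-colour arrays each. The model is a single cell line with a single siRNA against Bach1, and the day of differentiation, the change of serum and the time since transfection cannot be told apart. The methods speak of triplicate experiments but not of separate cultures, so p-values measure the spread between these samples, which may be technical. Replicates 1 and 2 were on 1 slide and replicate 3 on another, and each condition kept its own column on both slides, so column and condition cannot be told apart.

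Values are log2 signals after subtraction of the array's own 75th percentile, so that 0 is the signal at that percentile. Each array had 26920 to 33313 probes well above background, with 0 saturated spots. With 3 arrays a condition, the precision of a value is limited by their number. Bach1 itself was lower in siBach1 cells by 3.42-fold at day 0 and by 3.91-fold at day 2 (limma adjusted p = 1.2e-05 and 1.4e-05), and its 3 siBach1 arrays lay below the 3 siControl arrays at both days. Of 5 myoblast markers, 4 (Myod1, Des, Cdh15 and Vcam1) reached that mark on all 12 arrays and Myf5 on 8. Of 5 leukocyte markers, 4 also were on all 12, with values from -2.06 to 4.74, whereas Adgre1 was on 0. Ptprc had means of 2.15 and 2.37 in siControl and siBach1 cells at day 0 and of 1.36 and 1.66 at day 2, and Itgam of 3.46, 3.40, 4.5 and 4.38 in the same order. The part of these genes in the results was not tested. Of 4 endothelial markers, Cdh5, Kdr and Tie1 were on 0 arrays and Pecam1 on 11. Of 4 adipocyte markers, Adipoq was on 0, Cidec on 2, Plin1 on 10 and Lep on 12, and of 4 epithelial markers, Epcam was on 0, Krt5 on 5, Cdh1 on 6 and Cldn4 on 8.

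Immediate early genes are transcribed within minutes of a growth factor or stress signal without new protein synthesis, and mostly through transcription factors that MAP kinases activate. Fos and Jun proteins pair through leucine zippers into AP-1, Egr1 is a zinc finger factor, Atf3 is a stress-induced member of the ATF/CREB group, and Myc pairs with Max to drive growth genes. In myoblasts, AP-1 and Myc are known for their place in proliferation, and Fos, Jun and Myc can hold back muscle differentiation.

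Between day 0 and day 2 the members did not move together. In siControl cells, Fos, Fosl2, Junb, Jund and Egr1 rose, Fosb, Fosl1 and Myc fell, and neither Jun nor Atf3 passed the test. The largest changes were a 14.5-fold fall of Fosl1, a 3.20-fold rise of Fos and a 2.84-fold fall of Myc. In siBach1 cells the same genes passed the test in the same directions apart from Jund, which did not pass unless quantile normalization was used. Counted by probes, 7 of 14 (50%) were called higher and 4 (28.6%) lower in siControl cells, against 24.6% and 28.7% of all 29664 tested probes. In siBach1 cells, 5 (35.7%) were called higher and 4 (28.6%) lower, against 23.8% and 32.3% of all. The share of members called lower was thus near that of all probes in siControl cells and under it in siBach1 cells. A call is a Benjamini-Hochberg adjusted p under 0.05 over all tested probes in limma. Over the 10 genes, the median log2 difference between days was 0.34 in siControl and 0.17 in siBach1 cells, beside 0.01 and -0.06 over all 15642 tested genes.

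**Figure D1:**
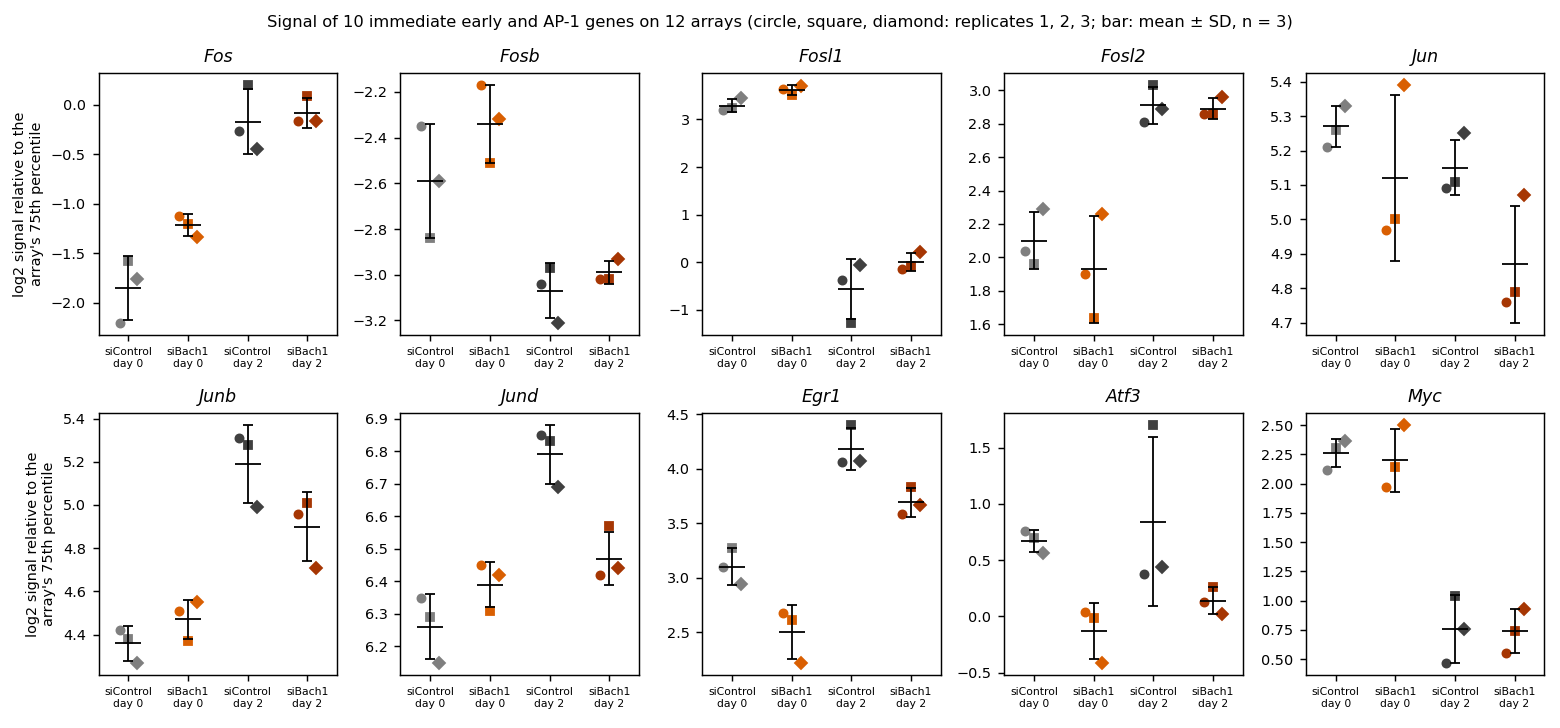
Log2 signal minus the 75th percentile of its array (y axis, scaled separately for each gene) of the first probe of each of the 10 genes in the 4 conditions (x axis), with replicates 1, 2 and 3 as circle, square and diamond and the mean ± SD of 3 arrays as bars. Fosl1 lay between 3.20 and 3.71 at day 0 and between -1.27 and 0.22 at day 2, and Egr1 lay lower in siBach1 than in siControl cells at both days.

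Fos, the classical serum-induced partner of Jun proteins in AP-1, was higher at day 2. At day 0 it read -2.20, -1.58 and -1.76 in siControl cells (mean -1.85 ± 0.32, SD, n = 3) and -1.12, -1.20 and -1.33 in siBach1 cells (mean -1.21 ± 0.11). At day 2 it read -0.26, 0.20 and -0.45 in siControl cells (mean -0.17 ± 0.33) and -0.16, 0.09 and -0.16 in siBach1 cells (mean -0.08 ± 0.15). All 6 arrays of day 2 lay above all 6 of day 0. The rise was 1.68 on the log2 scale in siControl cells (SE 0.19, adjusted p = 3.2e-05) and 1.14 in siBach1 cells (SE 0.19, adjusted p = 0.00044). Since these are whole cultures, a change in RNA per cell and a change in the share of cells that carry the RNA cannot be told apart, here and in all results that follow.

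RefSeq promoter windows on GRCm38.p6 were found for 7 of the 10 members (Fos, Fosb, Fosl2, Jun, Junb, Jund and Atf3) and not for Fosl1, Egr1 and Myc. In the 250 bases before the start site, both strands were searched for the CRE (TGACGTCA), the TRE (TGACTCA), the E-box (CACGTG), the TATA box (TATAAA), the MARE core (GCTGAGTCA, which holds the TRE) and, by its known form, the CArG box. The only match in the 7 windows was a TATA box of Fos, 33 bases before its start. Of all 32536 windows of this length, 12.3% held that motif, 4.45% a TRE, 1.56% a CRE, 1.48% a CArG box, 6.04% an E-box and 0.393% a MARE core. The 80 bases before the start of Fos are shown because its window alone held a match, with the TATA box in capitals (chr12:85473810-85473889, plus strand, RefSeq, GRCm38.p6).
Fos: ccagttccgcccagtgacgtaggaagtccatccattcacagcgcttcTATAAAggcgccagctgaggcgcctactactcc
A match describes the letters only, and the absence of the other motifs says only that these letters are not in these windows.

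Fosb, a close relative of Fos, moved the other way. It read -2.35, -2.84 and -2.59 in siControl and -2.17, -2.51 and -2.32 in siBach1 cells at day 0. At day 2 it read -3.04, -2.97 and -3.21 in siControl and -3.02, -3.02 and -2.93 in siBach1 cells. The arrays of day 2 all lay below those of day 0. Fosb fell by 0.48 on the log2 scale in siControl cells (SE 0.13, adjusted p = 0.01) and by 0.65 in siBach1 cells (SE 0.13, adjusted p = 0.0016). With a normexp background correction in place of the scanner's, the siControl difference was -0.08 and was not called (adjusted p = 0.52), whereas the siBach1 difference was still called.

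Fosl1 encodes Fra-1, an AP-1 subunit tied to growth factor signalling and proliferation, and it had the largest change of all members. At day 0 it read 3.20, 3.23 and 3.45 in siControl cells (mean 3.29 ± 0.14) and 3.64, 3.51 and 3.71 in siBach1 cells (mean 3.62 ± 0.10). At day 2 it read -0.38, -1.27 and -0.05 in siControl cells (mean -0.56 ± 0.63) and -0.15, -0.07 and 0.22 in siBach1 cells (mean 0.00 ± 0.19). All day 2 arrays lay below all day 0 arrays, and siControl replicate 2 was the lowest of them. Fosl1 fell by 3.86 on the log2 scale in siControl cells (SE 0.25, adjusted p = 9.1e-07) and by 3.62 in siBach1 cells (SE 0.25, adjusted p = 1.3e-06), which were falls of 14.5-fold and 12.3-fold.

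Fosl2 encodes Fra-2, the AP-1 subunit closest to Fra-1, and it rose while Fosl1 fell. Its brighter probe read 2.04, 1.96 and 2.29 in siControl and 1.90, 1.64 and 2.26 in siBach1 cells at day 0. At day 2 it read 2.81, 3.03 and 2.89 in siControl and 2.86, 2.86 and 2.96 in siBach1 cells. The days did not overlap for this probe. The rise was 0.81 on the log2 scale in siControl cells (SE 0.15, adjusted p = 0.00099) and 0.96 in siBach1 cells (SE 0.15, adjusted p = 0.00031). The dim probe (A_51_P507242) was well above background on 2 of 3 arrays of either condition at day 0. Its differences between days were 0.53 and 0.40 and did not pass the test (adjusted p = 0.062 and 0.14). The former passed with replicate as a block (adjusted p = 0.022) or without siControl day 2 replicate 3 (0.79, adjusted p = 0.0026). The block raised the share of all probes called, in both directions together, to 62.7% and 64% between days in siControl and siBach1 cells, and to 27.5% and 21.3% for silencing at day 0 and day 2.

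Jun, which forms AP-1 with Fos proteins or with itself, did not pass the test between days. It read 5.21, 5.26 and 5.33 in siControl and 4.97, 5.00 and 5.39 in siBach1 cells at day 0. At day 2 it read 5.09, 5.11 and 5.25 in siControl and 4.76, 4.79 and 5.07 in siBach1 cells. The days overlapped for either siRNA, and replicate 3 was the highest in each of the 4 conditions. The difference between days was -0.12 in siControl cells (95% interval -0.40 to 0.17, adjusted p = 0.48) and -0.25 in siBach1 cells (95% interval -0.53 to 0.04, adjusted p = 0.12). With replicate as a block the second of these was called (adjusted p = 0.022), and with quantile normalization it was 0.06 and not called (adjusted p = 0.67).

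Junb, a Jun protein with weaker activation than Jun, rose for both siRNAs. Its brighter probe read 4.42, 4.38 and 4.27 in siControl and 4.51, 4.37 and 4.55 in siBach1 cells at day 0. After 2 days it read 5.31, 5.28 and 4.99 in siControl and 4.96, 5.01 and 4.71 in siBach1 cells. The days did not overlap. The rise was 0.84 on the log2 scale in siControl cells (SE 0.11, adjusted p = 0.00013) and 0.42 in siBach1 cells (SE 0.11, adjusted p = 0.0094). The second probe (A_55_P2011106) rose by 0.85 and 0.92 (adjusted p = 0.017 and 0.01). In siControl cells it lost the call without siControl day 0 replicate 2 (0.77, adjusted p = 0.056) or siControl day 2 replicate 2 (0.67, adjusted p = 0.069), and stood at an adjusted p of 0.05 without siControl day 0 replicate 1 (0.80).

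Jund, the Jun family member that is present in many resting cells, rose in siControl cells. Its brighter probe read 6.35, 6.29 and 6.15 in siControl and 6.45, 6.31 and 6.42 in siBach1 cells at day 0. Its day 2 values were 6.85, 6.83 and 6.69 in siControl but 6.42, 6.57 and 6.44 in siBach1 cells. The siControl arrays of day 2 lay above all other arrays, whereas the siBach1 arrays of the 2 days overlapped. The difference between days was 0.52 in siControl cells (SE 0.09, adjusted p = 0.00048) and 0.08 in siBach1 cells (95% interval -0.11 to 0.27, adjusted p = 0.47). The other probe (A_51_P357744) gave 0.50 and 0.10 (adjusted p = 0.00097 and 0.4). This contrast depended on the scaling, since with quantile normalization both probes were also called higher at day 2 in siBach1 cells, by 0.45 and 0.44 (adjusted p = 0.0017 and 0.0011).

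Egr1, a zinc finger factor induced by growth factors through serum response elements, was higher at day 2. It read 3.1, 3.27 and 2.94 in siControl cells (SD 0.17) and 2.68, 2.61 and 2.22 in siBach1 cells (mean 2.50 ± 0.25) at day 0. By day 2 it read 4.06, 4.40 and 4.07 in siControl cells (mean 4.18 ± 0.19) and 3.58, 3.83 and 3.67 in siBach1 cells (mean 3.69 ± 0.13). For either siRNA the days did not overlap, and at either day the siRNAs did not overlap. The rise was 2.10-fold in siControl cells (log2 1.07, SE 0.15, adjusted p = 0.00014) and 2.28-fold in siBach1 cells (log2 1.19, SE 0.15, adjusted p = 6.6e-05).

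Atf3, which is induced by many stress signals and can repress its targets, did not pass the test between days. It read 0.76, 0.70 and 0.56 in siControl and 0.04, -0.01 and -0.41 in siBach1 cells at day 0. The day 2 values were 0.38, 1.70 and 0.44 in siControl and 0.13, 0.26 and 0.02 in siBach1 cells. One siControl array of day 2, replicate 2, stood well above its replicates. The difference between days was 0.17 in siControl cells (95% interval -0.49 to 0.82, adjusted p = 0.67) and 0.27 in siBach1 cells (95% interval -0.39 to 0.92, adjusted p = 0.48).

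Myc, the partner of Max that drives ribosome and nucleotide synthesis, fell for both siRNAs. It read 2.12, 2.30 and 2.36 in siControl and 1.97, 2.14 and 2.50 in siBach1 cells at day 0. After 2 days it read 0.47, 1.04 and 0.76 in siControl and 0.55, 0.74 and 0.93 in siBach1 cells. The days did not overlap and the siRNAs did at both days. Myc fell by 1.5 on the log2 scale in siControl cells (SE 0.17, adjusted p = 4e-05) and by 1.46 in siBach1 cells (SE 0.17, adjusted p = 4.6e-05). The second probe (A_52_P278549) fell by 1.57 and 1.66 (adjusted p = 4.3e-05 and 2.7e-05).

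**Figure D2:**
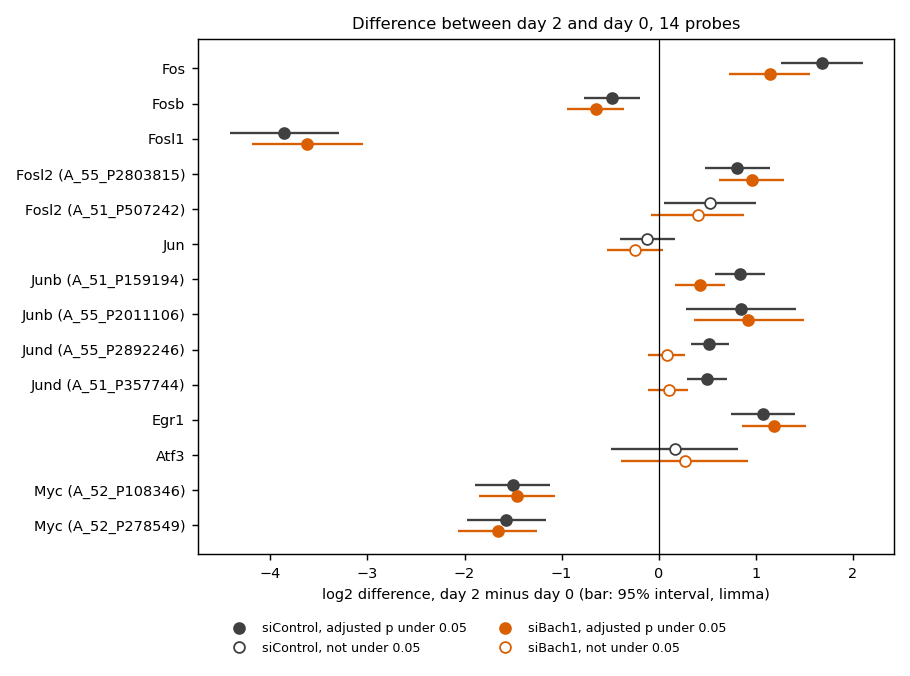
Log2 difference between day 2 and day 0 (x axis) of the 14 tested probes (y axis) in siControl and siBach1 cells, with 95% intervals from limma and filled points for an adjusted p under 0.05. The differences ran from -3.86 for Fosl1 to 1.68 for Fos, and both Jund probes were filled only for siControl, although with quantile normalization they were called for siBach1 too.

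Bach1 silencing changed few members. At day 0, Egr1 was lower by 1.52-fold and Fos was higher by 1.55-fold in siBach1 cells, and the other 8 genes did not pass the test. At day 2, Jund was lower by 1.24-fold in siBach1 cells, and the other 9 genes did not pass. Of the 14 probes, 1 (7.14%) was called higher and 1 (7.14%) lower at day 0, against 8.8% and 8.32% of all tested probes. At day 2, 0 were called higher and 1 (7.14%) lower in limma, against 5.75% and 6.26% of all. These shares were near those of all probes. At an unadjusted p under 0.05, limma gave 3 of the 14 probes at day 0 and 5 at day 2, against 31.1% and 27.3% of all. The 3 siBach1 and 3 siControl arrays did not overlap for 5 probes at either day, against 37.3% of all at day 0 and 32.8% at day 2. The median difference over the 10 genes was 0.03 at day 0 and -0.15 at day 2, beside 0.08 and -0.03 over all tested genes. The silencing and day comparisons share arrays, so their values for a gene are not independent of each other.

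Egr1 was lower in siBach1 cells on all arrays of either day. It fell by 0.60 on the log2 scale with silencing at day 0 (SE 0.15, adjusted p = 0.021). At day 2 the difference was -0.48 (SE 0.15) and did not pass (adjusted p = 0.064). It passed with replicate as a block (adjusted p = 0.015) or slide as a block (adjusted p = 0.02). Within slide 1 the differences were -0.54 and -0.52 at the 2 days, and within slide 2 they were -0.72 and -0.41. The call at day 0 was lost without siControl replicate 1 (adjusted p = 0.061), siControl replicate 2 (adjusted p = 0.083) or siBach1 replicate 3 (adjusted p = 0.066), at differences of -0.60, -0.52 and -0.46.

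Fos was higher in siBach1 cells at day 0 by 0.63 on the log2 scale (SE 0.19, adjusted p = 0.044). Its siControl arrays lay from -2.20 to -1.58 and its siBach1 arrays from -1.33 to -1.12. Within slide 1 the difference was 0.73 and within slide 2 it was 0.43. The call was lost on leaving out siControl replicate 1 (0.46, adjusted p = 0.15) or replicate 3 (0.68, adjusted p = 0.075), or siBach1 replicate 1 (0.58, adjusted p = 0.12), 2 (0.62, adjusted p = 0.098) or 3 (0.69, adjusted p = 0.071). At day 2 the difference was 0.10 (95% interval -0.32 to 0.52, adjusted p = 0.81), and the siRNAs overlapped.

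Jund was lower in siBach1 cells at day 2 by its brighter probe, which fell by 0.31 on the log2 scale (SE 0.09, adjusted p = 0.042). The other probe gave -0.23 and did not pass (adjusted p = 0.13). For both probes all 3 siBach1 arrays lay below all 3 siControl arrays. Within slide 1 the brighter probe differed by -0.35 and within slide 2 by -0.25. The call was lost on leaving out any of the 6 arrays but siControl replicate 3, with adjusted p from 0.054 to 0.14, and with quantile normalization (-0.16, adjusted p = 0.3) or normexp (-0.25, adjusted p = 0.077). At day 0 the probes differed by 0.13 and 0.17 (adjusted p = 0.35 and 0.25).

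Atf3 had the largest silencing differences of the members but also the widest spread. It was -0.80 at day 0 (SE 0.30, adjusted p = 0.095) and -0.70 at day 2 (SE 0.30, adjusted p = 0.16), and the siRNAs did not overlap at either day. With replicate as a block, the difference at day 0 was called (adjusted p = 0.047). A fit of only the arrays compared also called it (SE 0.15, adjusted p = 0.021). Without siControl replicate 2, the array that stood above its replicates, the difference at day 2 was -0.27. Within slide 1 the differences were -0.71 and -0.84, and within slide 2 they were -0.97 and -0.42.

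The other members gave differences that did not pass the test at either day. Fosl1 differed by 0.33 at day 0 (adjusted p = 0.42), where the siRNAs did not overlap, and by 0.57 at day 2 (adjusted p = 0.18), where they did. Jun differed by -0.15 (adjusted p = 0.49) and by -0.28 (adjusted p = 0.19). At day 2 its siRNAs did not overlap, and the difference was called with replicate as a block (adjusted p = 0.038). Junb differed by 0.12 and -0.30 by its brighter probe (adjusted p = 0.54 and 0.12) and by 0.03 and 0.10 by the other (adjusted p = 0.96 and 0.85). Fosb differed by 0.26 and 0.08, with 95% intervals from -0.03 to 0.55 and from -0.21 to 0.38. The brighter probe of Fosl2 differed by -0.16 and -0.02, with intervals from -0.50 to 0.17 and from -0.35 to 0.32. Myc differed by -0.06 and -0.02, with intervals from -0.45 to 0.33 and from -0.40 to 0.37, so that a change of the size seen between days lay outside both.

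**Figure D3:**
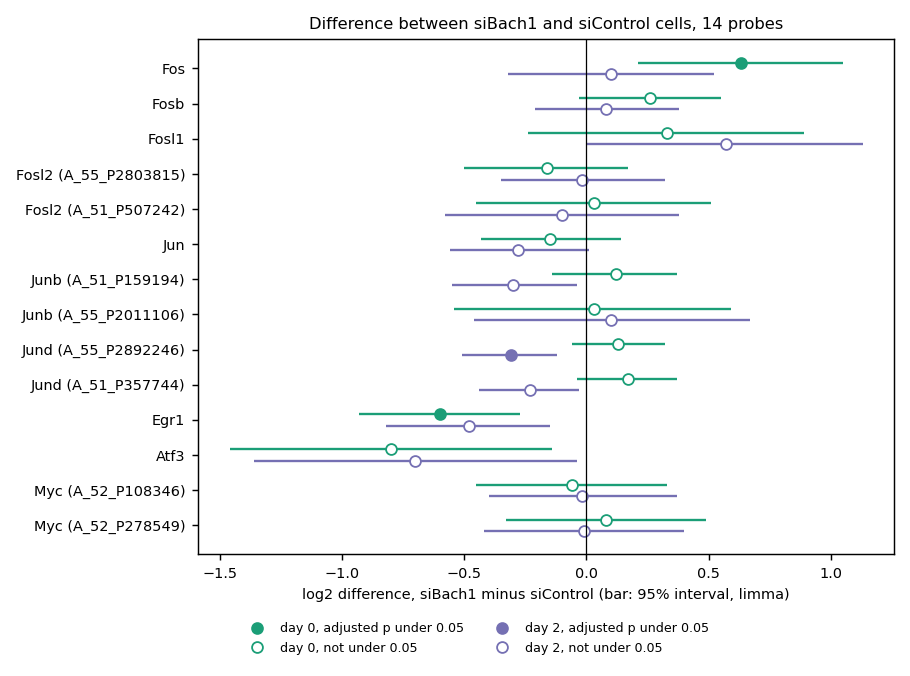
Log2 difference between siBach1 and siControl cells (x axis) of the 14 tested probes (y axis) at day 0 and day 2, with 95% intervals from limma and filled points for an adjusted p under 0.05. Only Fos (0.63) and Egr1 (-0.60) at day 0 and 1 Jund probe (-0.31) at day 2 are filled, and both Atf3 intervals are the widest of the plot.

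Whether silencing acted differently at the 2 days was tested as the difference between its effects, day 2 minus day 0. In limma, 0 of the 14 member probes passed, against 2.39% of all tested probes called higher and 2.2% lower, and 3 had an unadjusted p under 0.05, against 21.8% of all. These 3 were the 2 Jund probes, with -0.44 (SE 0.12, adjusted p = 0.07) and -0.40 (SE 0.13, adjusted p = 0.11), and the brighter Junb probe with -0.41 (SE 0.16, adjusted p = 0.17). With replicate as a block, both Jund probes passed (adjusted p = 0.036 and 0.046), at a setting that called 13.0% of all probes. Fos gave -0.54 (adjusted p = 0.28), so the day 0 call of Fos was not shown to differ from day 2. Egr1 gave 0.12 (adjusted p = 0.82), with an interval from -0.35 to 0.59.

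For each member, the gene with the most similar profile over the 12 arrays was sought among 21609 probes of other genes detected on every array, by the root mean square difference between mean-centred log2 values. Jund was closest to Csnk1e (0.05), Jun to Trim2 (0.06), Junb to Taz (0.08), Fosl2 to Nub1 (0.10) and Myc to Pim3 (0.11). Fosb was closest to Dap3 (0.12), Egr1 to Stap2 (0.12), Fos to Taco1os (0.18), Atf3 to Nt5e (0.22) and Fosl1 to 1700012B09Rik (0.29). This measure grows with the range of a gene over the arrays, which was 4.98 for Fosl1 and 0.70 for Jund.

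Of the other immediate early genes, 21 of 22 were tested, with 1 probe a gene. Between days, 9 rose and 5 fell in siControl cells and 8 rose and 6 fell in siBach1 cells, so that this group too was split. Of all 29664 tested probes, 24.6% rose and 28.7% fell in siControl cells, and 23.8% and 32.3% in siBach1 cells. The counts of the lists that follow, also with 1 probe a gene, stand beside the same shares. Egr2 and Egr3, relatives of Egr1, rose by 1.35 and 1.58 on the log2 scale in siControl cells (adjusted p = 1.3e-05 and 0.00015), and Gadd45b, a stress sensor, rose by 1.23 (adjusted p = 3.9e-06). Arc, best known from neurons, fell by 1.88 (adjusted p = 2.7e-06). In siBach1 cells, Ctgf, a matrix-associated growth regulator, rose by 2.39 (adjusted p = 0.00011) and Nr4a1, an orphan nuclear receptor, by 1.19 (adjusted p = 1.1e-06). Both also rose in siControl cells, by 0.93 and 0.42 (adjusted p = 0.032 and 0.0014). Egr2, Egr3 and Gadd45b rose in siBach1 cells too, by 1.27, 0.77 and 0.43 (adjusted p = 1.9e-05, 0.013 and 0.0047), and Arc fell by 1.60 (adjusted p = 7.6e-06). Here and in the lists that follow, a gene named for 1 siRNA may also have been called for the other.

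With silencing, 0 of these 21 rose and 4 fell at day 0 in limma, and 1 rose and 5 fell at day 2. Of all tested probes, 8.8% were called higher and 8.32% lower at day 0, and 5.75% and 6.26% at day 2. The silencing counts of the lists that follow stand beside the same shares. At day 0, Ctgf fell by 1.49 on the log2 scale (adjusted p = 0.011), Nr4a2 by 0.66 (adjusted p = 0.018), Dusp1, a MAP kinase phosphatase, by 0.47 (adjusted p = 0.022) and Ier3 by 0.44 (adjusted p = 0.013). At day 2, Ier2 fell by 0.69 (adjusted p = 0.005), Gadd45b by 0.66 (adjusted p = 0.0035) and Maff, a small Maf protein of the kind Bach1 pairs with, by 0.58 (adjusted p = 0.0032), whereas Nr4a1 was higher by 0.78 (adjusted p = 0.00046). A second probe was not called for Nr4a2 (-0.48) or Ier2 (-0.06). Of the 6 fits that left out 1 array, 4 lost the call of Dusp1, 2 that of Nr4a2 and 1 that of Ier3. The median over the list was -0.19 at day 0 and -0.22 at day 2, beside 0.08 and -0.03 over all tested genes. Over 15 alternative settings, the number that fell ranged from 0 to 9 at day 0 and from 3 to 9 at day 2.

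Among the other leucine zipper factors of the AP-1 and CREB groups, 8 of 9 were tested. Maf, the large Maf protein, rose between days by 2.36 in siControl and 2.67 in siBach1 cells on the log2 scale (adjusted p = 2.7e-07 and 1.4e-07). It was also higher with silencing at both days, by 0.76 (adjusted p = 0.0029) and 1.07 (adjusted p = 0.00095). Jdp2, a repressing partner of Jun proteins, was higher with silencing at day 0 by 0.43 (adjusted p = 0.031), a call lost in 4 of 6 fits without 1 array. Batf3 entered the test only through siControl cells at day 0, where it was well above background on 3 arrays, against 2 siBach1 arrays, with means of -2.20 and -3.71. This difference was lost in 5 of 6 fits without 1 array and was -0.52 with normexp, so it is counted among the calls but not read further. Batf3 was above background on 0 arrays at day 2. On the scale used here it was at least 4.97-fold lower at day 2 in siControl and at least 1.86-fold lower in siBach1 cells. These bounds set the mean of the brighter day against the lowest signal well above background on each day 2 array. They do not hold at every setting, since over 14 alternatives the log2 differences reached -0.80 and -0.56. The bright siControl arrays of day 0 admitted the probe, so its fall is counted but not read as a test result. Creb1 fell by 0.38 in siControl cells (adjusted p = 0.014), but 1 of its 3 other probes was called the other way. In siBach1 cells Crem rose by 0.45 (adjusted p = 0.011) and Atf2 fell by 0.31 (adjusted p = 0.0092). Each had 2 other probes, of which 1 of Crem and 0 of Atf2 were called the same way. These other probes ran from -0.16 to 0.42 for Crem and from -0.31 to -0.17 for Atf2. Counted over the list, 1 rose and 2 fell in siControl cells, 2 rose and 2 fell in siBach1 cells, 2 were higher and 1 lower with silencing at day 0, and 1 was higher at day 2.

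The kinases and factors that act upstream of immediate early genes gave fewer calls between days in siControl cells, where 3 of 16 rose and 3 fell, than in siBach1 cells, where 6 rose and 4 fell. The difference between these counts was not tested. In both directions together, 53.4% of all probes were called between days in siControl cells and 56.1% in siBach1 cells. With silencing, the same 2 genes were lower at both days, and 0 were higher in limma. Mapk14, the p38 alpha kinase, fell by 1.39 on the log2 scale at day 0 and by 0.64 at day 2 (adjusted p = 8.9e-06 and 0.0015). Rps6ka3, a ribosomal S6 kinase, fell by 0.79 and 0.50 (adjusted p = 0.00038 and 0.0083). A second probe of Mapk14 was also called lower at both days, whereas the 2 other probes of Rps6ka3 were not called. Between days, Mapk8, a JNK kinase, rose by 1.12 in siControl cells (adjusted p = 4.6e-05) and 0.96 in siBach1 cells (adjusted p = 0.00013), and Elk3 fell by 0.83 and 0.78 (adjusted p = 0.00043 and 0.00061). Mapk14 fell by 0.43 in siControl cells (adjusted p = 0.0012) and rose by 0.32 in siBach1 cells (adjusted p = 0.0073). Mkl1 fell by 0.38 and 0.37 (adjusted p = 0.013 and 0.014), and Rps6ka3 rose by 0.36 and 0.65 (adjusted p = 0.0082 and 0.00018). The related Rps6ka1 rose by 0.57 in siBach1 cells (adjusted p = 0.038), a call lost in 4 of 6 fits without 1 array, and differed by 0.18 in siControl cells (adjusted p = 0.5).

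Feedback inhibitors of growth factor signalling mostly fell between days, with 7 of 10 lower and 2 higher in siControl cells and 7 lower and 1 higher in siBach1 cells. Dusp5 and Dusp4, phosphatases that inactivate MAP kinases, fell by 2.38 and 1.47 on the log2 scale in siControl cells (adjusted p = 6e-07 and 1.5e-05) and by 2.04 and 1.32 in siBach1 cells (adjusted p = 1.6e-06 and 3e-05). Errfi1, an inhibitor of the EGF receptor, fell by 1.29 in siControl cells (adjusted p = 3.5e-06), and Dusp2 and Dusp6 fell by 1.56 and 0.86 in siBach1 cells (adjusted p = 3.8e-06 and 7.8e-05). Spry1 went the other way and rose by 3.06 in siControl cells (adjusted p = 2.8e-07). With silencing, 3 were higher and 2 lower at day 0 and 1 was higher and 2 lower at day 2. Spry1 was higher by 1.80 at day 0 (adjusted p = 9.6e-05) and Dusp10 by 0.75 (adjusted p = 0.0028), while Dusp5 fell by 0.74 (adjusted p = 0.0069) and Errfi1 by 0.56 (adjusted p = 0.0052). At day 2, Spry1 fell by 0.67 (adjusted p = 0.029), a call lost in 5 of 6 fits without 1 array, and Dusp6 by 0.53 (adjusted p = 0.013), and Spred1 was higher by 0.39 (adjusted p = 0.014). A second probe was not called for Errfi1, at 0.04 between days in siControl cells and -0.02 with silencing at day 0, or for Spred1, at -0.12.

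Genes known as AP-1 targets, 14 of 16 of which were tested, were lower more often than higher at day 2, with 8 lower and 4 higher in siControl cells and 7 lower and 4 higher in siBach1 cells. Ccnd1, the D cyclin of the early cell cycle, fell by 2.62 and 2.04 on the log2 scale (adjusted p = 5.9e-07 and 2.8e-06), Plaur, the urokinase receptor, differed by -2.32 and -2.25 (adjusted p = 3.1e-06 and 3.7e-06), and Hmga1, a chromatin protein, by -2.48 in siBach1 cells (adjusted p = 5.8e-08). Mmp10 was also lower at day 2 in siControl cells (adjusted p = 1.3e-07), where it was well above background on 1 of 3 arrays, with means of -4.92 and -2.27 at day 2 and day 0. Mmp3 entered the test only through siBach1 cells at day 2. It was above that level on 0 arrays at day 0 and on 2 siControl and 3 siBach1 arrays at day 2. On the scale used here this makes it at least 1.12-fold and at least 3.62-fold higher at day 2. The second bound does not hold at every setting, since over 14 alternatives the siBach1 rise was as low as 1.01 on the log2 scale. The rise of Mmp3 is counted but not read as a test result. With silencing, 1 was higher and 5 lower at day 0, and 1 higher and 3 lower at day 2. Cd44, a hyaluronan receptor, fell at both days, by 0.67 and 0.63 (adjusted p = 0.0022 and 0.0052), and Tnc fell by 1.15 (adjusted p = 0.0086) and Mmp10 by 1.36 (adjusted p = 9.6e-05) at day 0. Il6 was higher at day 0 by 1.60, or by 0.63 with normexp (adjusted p = 0.022 and 0.016), with 2 of 3 siControl arrays well above background, and the call was lost in 4 of 6 fits without 1 array. The call of Mmp3 as higher in siBach1 than in siControl cells at day 2, with means of -2.52 and -4.48, was lost in 4 of 6 such fits. The 2 other probes of Cd44 were not called at either day. Sphk1 and Spp1 fell by 0.50 and 0.36 at day 2 (adjusted p = 0.0086 and 0.03), and the call of Spp1 was lost in 4 of 6.

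**Figure D4:**
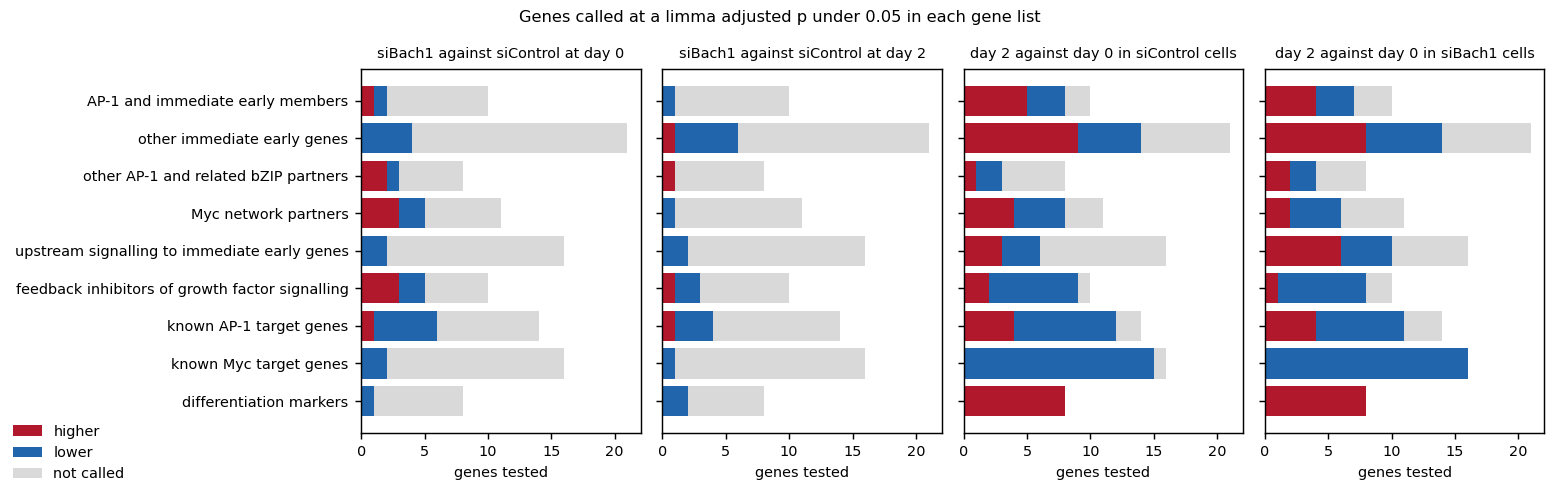
Number of tested genes (x axis) called higher (red), lower (blue) or not called (grey) at a limma adjusted p under 0.05 in the 10 members and 8 further gene lists (y axis) for the silencing comparisons at day 0 and day 2 and the day comparisons in siControl and siBach1 cells. The Myc targets are almost all blue in the day comparisons, with 15 of 16 and 16 of 16 lower, whereas the members are split.

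Genes known as Myc targets fell nearly without exception. Of 16, 15 fell in siControl cells and 16 in siBach1 cells, with medians of -1.35 and -1.37 on the log2 scale beside 0.01 and -0.06 over all tested genes. The one not called in siControl cells was Ldha, a glycolytic enzyme, at -0.14 (adjusted p = 0.33). Srm, a spermidine synthase, fell by 2.04 and 2.01 (adjusted p = 7.1e-06 and 7.5e-06), Nop56, a nucleolar protein of ribosome assembly, differed by -1.92 and -2.02 (adjusted p = 1.7e-07 and 1.4e-07), and Cad, an enzyme of pyrimidine synthesis, by -1.82 and -1.73 (adjusted p = 2.2e-05 and 2.8e-05). A second probe of Cad gave -0.12 and 0.15 and was not called. Nolc1 fell by 1.76 in siControl cells (adjusted p = 1.1e-06) and Ncl by 1.75 in siBach1 cells (adjusted p = 9.6e-08). With silencing, 2 of the 16 were lower at day 0, Nolc1 by 0.61 and Odc1 by 0.39 below siControl (adjusted p = 0.0065 and 0.036), and 1 at day 2, Eif4e, which fell by 0.33 (adjusted p = 0.02). Leaving out 1 array lost the call of Odc1 in 5 of 6 fits, of Eif4e in 3 and of Nolc1 in 0.

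Among Max and the related partners and antagonists of Myc, 11 of 12 were tested. Mxd1 and Mxd4, which compete with Myc for Max, rose between days by 1.87 and 1.54 on the log2 scale in siControl cells (adjusted p = 2.9e-05 and 5.7e-06) and by 1.12 and 1.32 in siBach1 cells (adjusted p = 0.00097 and 1.5e-05). Mxd3, of the same family but known from dividing cells, fell by 2.13 and 1.80 (adjusted p = 3.3e-05 and 9.9e-05). Mycl, a relative of Myc, rose by 1.39 in siControl cells (adjusted p = 2.9e-05) and did not pass in siBach1 cells (-0.24, adjusted p = 0.23). Max fell by 0.42 in siControl and by 0.57 in siBach1 cells (adjusted p = 0.023 and 0.0043). In all, 4 rose and 4 fell in siControl cells, and 2 rose and 4 fell in siBach1 cells. With silencing, 3 were higher and 2 lower at day 0, among them Mycl by 1.07 (adjusted p = 0.0012), Mxi1 by 0.48 (adjusted p = 0.00084), Mnt by 0.42 (adjusted p = 0.035) and Mxd3, which fell by 0.96 (adjusted p = 0.021). At day 2, Mycl alone of the 11 was called, and fell by 0.56 (adjusted p = 0.043). Of 6 fits without 1 array, 5 lost this call, 5 that of Mxd3 at day 0 and 4 that of Mnt.

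The muscle genes that mark differentiation rose for both siRNAs, with 8 of 8 higher at day 2. Ckm, the muscle creatine kinase, rose by 6.75 and 6.78 on the log2 scale, Tnnt3 by 5.71 and 5.49 and the embryonic myosin Myh3 by 5.34 and 5.30 (adjusted p of 1.4e-07 or less in each case). Myog, which encodes myogenin, rose by 4.85 in siControl cells (adjusted p = 7.4e-08), and Acta1 by 4.16 in siBach1 cells (adjusted p = 6.3e-08). With silencing, 1 of 8 was lower at day 0 and 2 at day 2. Myog fell by 0.98 (adjusted p = 0.016) and Tmem8c, the fusion protein myomaker, by 0.59 (adjusted p = 0.027) at day 2. Leaving out 1 array lost the call of Tmem8c in 6 of 6 fits and that of Myog in 2. Mef2c fell by 0.69 at day 0 (adjusted p = 0.0057), but 1 of its 2 other probes was called higher.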

How the data were processed

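Cyanine 3-labelled cRNA of 12 C2C12 samples was read on Agilent 8x60K mouse arrays. The authors scanned the arrays and deposited, per array, a processed signal, which is an intensity after background subtraction, with median intensities and flag columns (other values, 0 or 1). Per the file headers, Feature Extraction 10.7.3.1 was used, whereas the submitters' processing notes name version 9.1. The authors also deposited a table of probe names, symbols and normalized log2 values, which were used as an alternative. Of per-sample columns, 0 were left out for want of a sample.

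Outlier spots (76 to 110 per array) and control spots were removed, log2 signals of repeated spots were averaged and the array's 75th percentile was subtracted. The deposited log2 values are on this scale with each probe centred on its median over the arrays. Over all probes and arrays, the absolute difference from values so computed had a median of 0.000964 and reached 0.254. All comparisons came from 1 fit of the 4 conditions in limma 3.58.1 (R 4.3.3), adjusted by Benjamini-Hochberg over 29664 probes. The fit was tested on simulated data. Files were read with pandas in Python. The methods name GeneSpring and a t-test, which was kept as an alternative and called the methods' t-test.

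All probes of the 10 members were reported. The probe described first is the one with the highest mean over 12 arrays, and lists used that probe alone, with the counts and, per comparison, up to 4 called genes of largest change. An item of the upstream signalling list is not reported here and was left out of its counts. Members and lists were chosen with earlier results of these data known. Residuals of same-numbered arrays correlated at 0.142 to 0.595 in 18 pairs, above the limit of 0.1, so that replicate numbers were taken to pair the samples; they also share a slide and a row. Alternatives were quantile normalization, normexp with an offset of 50 on median signals, the authors' values, no filter, a filter on all 12 arrays, a block for slide or for replicate, a fit of each comparison alone, the methods' t-test, a fold change of at least 2, and leaving out single arrays. The genome build of the files differs from that of the promoter windows, whose coordinates are those of RefSeq.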

Additional observations from a re-analysis of the deposited data

Results flagged for a closer look

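In the limma fit without a block, no member had silencing effects that differed between days (day 2 minus day 0, adjusted over all tested probes). Both Jund probes passed with replicate as a block (adjusted p = 0.036 and 0.046) or slide as a block (adjusted p = 0.027 and 0.035). In the fit without a block, 8 genes of the related lists passed, and are given here as values. Of all tested probes, 4.59% were called. Of 21 other immediate early genes, 1 was called higher and 2 lower, and of 11 Myc partners, 2 were called lower. Called were 1 of 16 upstream genes, 1 of 10 feedback inhibitors and 1 of 14 AP-1 targets. Of 8 leucine zipper factors, 16 Myc targets and 8 differentiation markers, 0 were called. Whether the lists differ from all probes was not tested. Spry1 had the largest, -2.47 (SE 0.24, adjusted p = 0.0021), from 1.80 at day 0 to -0.67 at day 2. Mycl went from 1.07 to -0.56, a difference of -1.63 (SE 0.22, adjusted p = 0.0079). The day 2 calls of both genes were each lost in 5 of 6 fits without 1 array. For Mapk14, which was lower with silencing at both days, the reduction was smaller at day 2, with a difference of 0.75 (adjusted p = 0.011). Mmp10 gave 1.05 (adjusted p = 0.015), but 0 siBach1 and 1 siControl array were well above background at day 2, so that its day 2 effect was not measured. With normexp it gave 0.33 and did not pass (adjusted p = 0.12). Nr4a1 differed by 0.78 (adjusted p = 0.0099), from 0.00 to 0.78. Gadd45b differed by -0.81 (adjusted p = 0.017), Klf10 by -0.59 (adjusted p = 0.019) and Mxi1 by -0.54 (adjusted p = 0.015). The Spry1 difference passed in all 20 alternatives counted, and those of the other 7 in 17 to 19 of 19 or 20.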

How the results depend on the processing

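Of the 14 member probes, 2 were called for silencing at day 0, 1 at day 2, 11 and 9 between days in siControl and siBach1 cells, and 0 for the difference between silencing effects. None of these calls changed direction under an alternative. Replicate numbers paired the samples, and with replicate as a block 3 probes were called at day 0, 3 at day 2, 12 and 10 between days and 2 for the difference; the members and p-values concerned are given with the results. Slide as a block gave 5 at day 2 and 2 for the difference, where it called 21.8% and 13.7% of all probes. Quantile normalization gave 1 at day 0, Egr1, and 0 at day 2. A fit of only the arrays compared gave another 1 at day 0, Atf3, and 0 at day 2. In that fit Fos and Egr1 lost their day 0 calls (adjusted p = 0.068 and 0.061). Normexp gave 0 at day 2. Without a filter on dim probes, with the methods' t-test after Benjamini-Hochberg and with a fold change of at least 2, 0 were called at either day. The t-test gave 1 for the difference after this adjustment, and 4, 2 and 3 for day 0, day 2 and the difference unadjusted, against 28.2%, 24.2% and 22.3% of all probes. A fold change of at least 2 left 5 between days for either siRNA. Leaving out 1 array gave 0 to 1 at day 0, 0 to 1 at day 2, 10 to 12 and 9 to 10 between days and 0 to 0 for the difference. Without siControl replicate 1 or siBach1 replicate 3, 0 were left at day 0, and at day 2 a call was left only without siControl replicate 3. The 70 member values, called and uncalled together, had 1395 alternative values. Of these, 60 had another sign than the main value, all for uncalled values. Quantile normalization and normexp moved the median of all probes by less than 0.1 in each comparison. Dim probes limit what can be said of Batf3, Mmp3, Mmp10 and Il6.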
